A study of Mus musculus with 9 samples.

Results

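Lenses that lacked *Mafg* were compared with lenses that kept 1 functional copy of it, to find the genes that differ with *Mafg* whatever the number of *Mafk* copies. RNA-seq values were available for 9 libraries of mouse lenses at E16.5 (embryonic day), each prepared from 8 pooled lenses. The 6 *Mafg*-null libraries were the 3 compound KO libraries (*Mafg*-/-:*Mafk*+/-) and the 3 double KO libraries (*Mafg*-/-:*Mafk*-/-), and they were set together against the 3 control libraries (*Mafg*+/-:*Mafk*+/-). The control lenses therefore carried a knockout allele of both genes, and no library came from wild type lenses. All alleles were germline knockouts on an ICR background, so they were not restricted to the lens. Of 22013 entries in the table, 15820 carried a gene symbol, and the 14578 of these that reached a value of 1 in 2 or more libraries were tested.

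1 library, compound KO replicate 1, stood apart from the other 8. Its mean Euclidean distance to them over all genes tested was 123 on the log2 scale, where that of each of the others was 80.3 to 87.5, and its values summed to the lowest total. It held the highest sums of 7 of the 8 lists of non-lens markers, red cells being the exception (305.2 for the surface and corneal epithelium list against 2.6 to 12.6 elsewhere, 761.0 for the pigment epithelium list against 38.0 to 66.1) and the lowest of lens fiber genes (7076 against 15940 to 22053). The part of other tissues in its values was not tested, and values without it stand beside the results that it touches most.

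Mafg, Mafk and Maff are small Maf proteins, bZIP transcription factors that bind DNA but have no transactivation domain of their own. They act through their partners. With Nrf2 (*Nfe2l2*) or Nrf1 (*Nfe2l1*) they activate genes for glutathione synthesis, NADPH supply and proteasome subunits, and with Bach1 they repress genes that handle heme and iron, so loss of a small Maf can remove an activator or a repressor. In the lens, large Maf proteins such as Maf itself drive crystallin expression in fiber cells, the long cells that an anterior sheet of epithelial cells gives rise to.

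A gene was called when limma's adjusted p was at most 0.05 and its change at least 1.5-fold. Differences are given on a log2 scale of the deposited normalized value plus 1, which understates the change of low genes. 16 genes passed, 0.110% of those tested, of which 10 were elevated (0.0686%) and 6 were reduced (0.0412%) in *Mafg*-null lenses. In all 16 every *Mafg*-null library lay on 1 side of every control library, a pattern that 1013 genes (6.95%) showed. After *Mafg* itself, the reduced genes were *Gm28036*, *Trex1*, *Actn2*, *4931440J10Rik* and *Sesn1*. The elevated genes were *Myod1*, *Slc48a1*, *Pcdh20*, *Gm5776*, *Klf9*, *Cpne1*, *Nr1d1*, *Pgrmc1*, *Pygo2* and *Dgcr8*.

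Antioxidant response elements are the sites that small Maf heterodimers bind, so promoters were searched for the core of this element, TGACNNNGC, on both strands. RefSeq promoter windows (GRCm38.p6, 250 bases before to 50 after the annotated start) were found for 12 of the 16 called genes, and the core occurred in 4 of them. It occurred in 16.9% of the 9898 tested genes with a window. The NF-E2 type element, TGANTCAGC, occurred in none of the 12 and in 1.25% of the tested genes. The 2 patterns can overlap at 1 site. The 4 promoters with the core follow up to the annotated start, 5′ to 3′ on the strand of the gene, with the core in capitals. They are printed because no other promoter of these 12 genes held the core, and the other 4 called genes were not searched. They come from chr11:120633548-120633797 (-) for *Mafg*, chr13:12340733-12340982 (-) for *Actn2*, chr2:156111966-156112215 (-) for *Cpne1* and chrX:36597943-36598192 (+) for *Pgrmc1*.
Mafg: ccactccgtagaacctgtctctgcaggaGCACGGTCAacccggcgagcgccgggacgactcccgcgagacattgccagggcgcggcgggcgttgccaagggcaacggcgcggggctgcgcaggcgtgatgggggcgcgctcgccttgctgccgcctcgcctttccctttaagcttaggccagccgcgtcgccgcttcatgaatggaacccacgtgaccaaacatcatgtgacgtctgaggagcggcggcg
Actn2: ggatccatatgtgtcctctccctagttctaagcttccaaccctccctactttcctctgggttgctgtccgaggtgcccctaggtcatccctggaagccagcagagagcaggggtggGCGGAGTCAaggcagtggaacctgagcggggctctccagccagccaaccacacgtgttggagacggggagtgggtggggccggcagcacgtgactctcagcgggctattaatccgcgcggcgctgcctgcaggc
Cpne1: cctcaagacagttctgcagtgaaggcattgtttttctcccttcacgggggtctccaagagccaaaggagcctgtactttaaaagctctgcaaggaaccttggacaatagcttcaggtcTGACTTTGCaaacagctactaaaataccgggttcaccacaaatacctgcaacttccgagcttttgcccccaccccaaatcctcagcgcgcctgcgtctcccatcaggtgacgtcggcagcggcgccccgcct
Pgrmc1: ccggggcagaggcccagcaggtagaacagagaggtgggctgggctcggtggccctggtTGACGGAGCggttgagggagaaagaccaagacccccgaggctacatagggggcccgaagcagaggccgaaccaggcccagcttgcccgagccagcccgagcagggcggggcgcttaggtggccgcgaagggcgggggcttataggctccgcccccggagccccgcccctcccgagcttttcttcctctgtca

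The match lay 222 bases before the start in *Mafg*, 134 in *Actn2*, 132 in *Cpne1* and 192 in *Pgrmc1*. In *Mafg* and *Actn2* it was on the strand opposite to the gene. 2 of these genes were reduced and 2 were elevated. Such a match describes the letters of the window and does not show that a factor binds there.

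The targeted gene was read first. *Mafg* (chr11:120515942-120524530 on GRCm39, minus strand) had values of 112.9, 120.7 and 134.5 in the control libraries, 10.1, 21.0 and 24.1 in the compound KO libraries and 24.6, 21.2 and 26.2 in the double KO libraries. The *Mafg*-null libraries thus kept 17.3% of the control mean, and the log2 difference was -2.53 ± 0.26 (SE, limma adjusted p = 0.0171, n = 6 and 3). Since the controls were heterozygous, this is the step from 1 functional copy to none. *Mafk* gave 5.2, 6.3 and 5.6 in control, 4.3, 5.3 and 4.8 in compound KO and 0.6, 0.0 and 0.3 in double KO libraries, so the libraries matched their labelled genotypes at both genes. The third small Maf gene, *Maff*, remained low in every library, between 3.2 and 5.2, and its groups overlapped.

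The models of *Sirt7*, a sirtuin deacetylase, and of the non-coding *Gm17586* overlap that of *Mafg*. *Sirt7* had 10.2, 9.5 and 9.1 in control and 5.3 to 7.5 in *Mafg*-null libraries, without overlap, but it was not called (log2 difference -0.53 ± 0.11, limma adjusted p = 0.259). Adding the *Sirt7* value to that of *Mafg* left the latter called at -2.25. Within 10 Mb of *Mafg* on chromosome 11, 145 other genes were tested and none was called, while 7.59% of them did not overlap between the groups, against 6.95% of all genes.

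**Figure D1:**
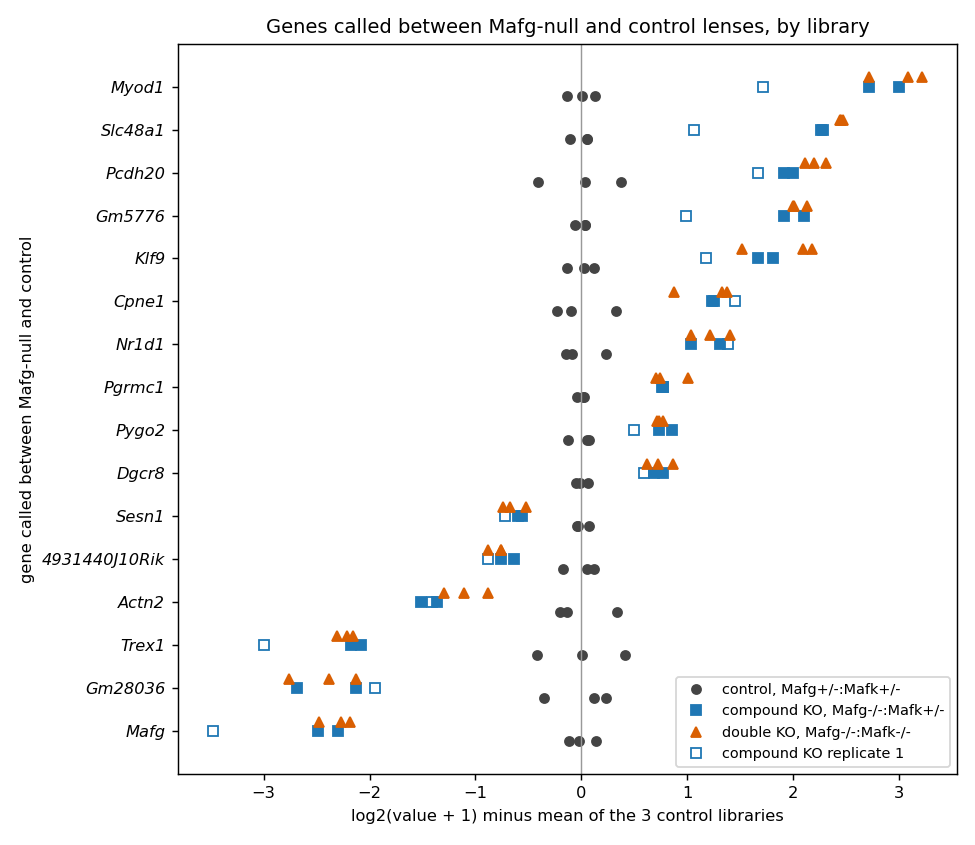
Values of the 16 called genes in each library, as log2(value + 1) minus the mean of the 3 control libraries on the horizontal axis and 1 gene per row. Circles are control, squares compound KO and triangles double KO libraries, and the open square is compound KO replicate 1. In every row the 6 *Mafg*-null libraries lie on 1 side of the 3 control libraries, and the open square is the *Mafg*-null library nearest to the controls in *Myod1*, *Slc48a1*, *Pcdh20*, *Gm5776*, *Klf9*, *Gm28036*, *Pygo2* and *Dgcr8*.

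*Slc48a1* (chr15:97676401-97690573 on GRCm39, as are all gene positions here), which encodes the heme transporter HRG1 and is on the list of heme and iron genes under Bach1, changed most among the elevated genes with a mean of at least 10 in 1 of the groups. Its values were 30.5, 27.1 and 30.3 in control, 62.2, 146.1 and 143.9 in compound KO and 164.5, 166.5 and 163.1 in double KO libraries. All *Mafg*-null libraries were above the controls, on average 4.81-fold, with compound KO replicate 1 between the others and the controls. The log2 difference was 2.16 ± 0.30 (SE), and the limma adjusted p of 0.0496 was close to the threshold. *Slc48a1* stayed called in only 1 of the 9 fits without 1 library. *Hdac7* overlaps this gene on the opposite strand. *Klf9* (chr19:23118187-23148497), a zinc finger repressor induced by glucocorticoids, had 4.1, 5.1 and 4.7 in control and 11.7, 16.9, 18.7, 22.9, 15.1 and 24.4 in *Mafg*-null libraries (1.74 ± 0.21, limma adjusted p = 0.0307).

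3 further elevated genes had small changes with a narrow spread. *Pgrmc1* (chrX:35861524-35869737), a heme-binding membrane protein that supports cytochrome P450 enzymes, gave 72.6, 72.1 and 69.0 in control, 121.8, 122.5 and 122.1 in compound KO and 120.2, 144.4 and 116.8 in double KO libraries. Its mean was 1.75-fold that of the controls (log2 difference 0.80 ± 0.07, SE, limma adjusted p = 0.0171), whereas its paralogue *Pgrmc2* had 50.5 to 55.0 in control and 44.9 to 56.2 in *Mafg*-null libraries. *Pygo2* (chr3:89337521-89342435), a co-activator of β-catenin, rose from 43.6, 43.0 and 37.7 to between 58.7 and 75.8 (0.72 ± 0.09, adjusted p = 0.0286). *Dgcr8* (chr16:18069575-18107140), the RNA-binding partner of Drosha in microRNA processing, rose from 18.5, 18.0 and 19.5 to between 28.7 and 34.7 (0.71 ± 0.08, adjusted p = 0.0171). In these genes the compound KO and double KO libraries lay among each other.

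2 elevated genes with very low control values were a nuclear receptor and a protocadherin. *Nr1d1* (chr11:98658752-98666188), which encodes the heme-binding clock repressor REV-ERBα, had 2.5, 1.8 and 1.7 in control and 5.1 to 6.9 in *Mafg*-null libraries (1.23 ± 0.14, limma adjusted p = 0.0204). It overlaps *Thra* on the opposite strand. *Pcdh20* (chr14:88694835-88708832), a cell adhesion protein, had 1.4, 0.4 and 0.9 in control and 4.9 to 8.2 in *Mafg*-null libraries (2.03 ± 0.20, limma adjusted p = 0.0171). Both stayed under a mean of 10 in either group, as did *Myod1* and *4931440J10Rik*.

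*Myod1* (chr7:46025870-46028526), the master regulator of skeletal muscle, was close to 0 in the control libraries (0.2, 0.1 and 0.0). It reached 2.6, 6.2 and 7.8 in compound KO and 9.2, 8.3 and 6.2 in double KO libraries (2.74 ± 0.31, SE, limma adjusted p = 0.0195). All 14 tested skeletal muscle genes had a higher mean in *Mafg*-null lenses, 13 without overlap (2.68% of all genes were higher without overlap). Their median log2 difference was 1.98, or 1.51 over the 13 tested without compound KO replicate 1. However, 11 of the 14, *Myod1* among them, were below 1 in every control library. Those 11 met the filter through *Mafg*-null libraries alone, so the filter itself favoured a higher mean and no overlap. The counts for this list are therefore a description and cannot be weighed against the share of all genes. The summed value of the list was 4.7 to 7.5 in the controls, 484.9 in compound KO replicate 1 and 27.7 to 122.8 in the other *Mafg*-null libraries. *Myod1* did not follow this order: it was lowest in compound KO replicate 1, where the sum was highest. *Myog*, its downstream partner, had 0.1 to 0.2 in control, 7.8 in compound KO replicate 1 and 0.2 to 1.2 in the other *Mafg*-null libraries. The part of muscle cells in the *Myod1* difference was not tested. In pooled tissue, more cells of a type and more RNA per cell cannot be told apart.

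Of the reduced genes, *Trex1* (chr9:108887001-108888802), which encodes the main 3′ DNA exonuclease of the cytosol, had 25.3, 45.9 and 34.3 in control, 3.4, 6.8 and 7.3 in compound KO and 6.6, 6.9 and 6.1 in double KO libraries. This was 17.6% of the control mean, with no overlap (-2.32 ± 0.24, SE, limma adjusted p = 0.0171). *Trex1* overlaps *Atrip* on the same strand, and with the *Atrip* value added the difference was -2.01 and still called. *Trex1* is the only one of 11 candidates that the study followed up on these libraries to be called in the pooled test, so it is not independent evidence of its direction.

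*Actn2* (chr13:12281303-12356693), the sarcomeric α-actinin that cross-links actin filaments, fell from 85.2, 119.2 and 81.5 in control to between 32.2 and 50.4 in *Mafg*-null libraries (-1.26 ± 0.16, SE, limma adjusted p = 0.0410). Its direction was opposite to that of the skeletal muscle list above. *Sesn1* (chr10:41685931-41784423), a sestrin that restrains mTORC1 and is induced by p53, fell from 57.0, 57.4 and 62.0 to between 34.7 and 40.7 (-0.64 ± 0.07, limma adjusted p = 0.0189). Its paralogue *Sesn3* had 96.7, 108.0 and 110.5 in control, 76.1 in compound KO replicate 1 and 165.3 to 196.6 in the other *Mafg*-null libraries, and *Sesn2* overlapped between groups. *4931440J10Rik* fell from 1.1, 0.8 and 1.2 to between 0.1 and 0.3 (-0.78 ± 0.11, limma adjusted p = 0.0496), at the lower end of what the table resolves.

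3 of the 16 calls ended when the value was summed with that of an overlapping or near-identical gene model. *Cpne1*, which encodes a calcium-dependent phospholipid-binding protein (chr2:155913762-155953885 on GRCm39), and *Gm28036* (chr2:155913765-155969012) overlap on the minus strand of chromosome 2. *Cpne1* had 6.3, 7.0 and 9.7 in control and 14.7 to 22.4 in *Mafg*-null libraries (1.25 ± 0.16, limma adjusted p = 0.0338). *Gm28036* had 14.9, 13.7 and 9.6 in control and 1.0 to 2.5 in *Mafg*-null libraries (-2.34 ± 0.22, limma adjusted p = 0.0171). The summed value was 21.2, 20.7 and 19.3 in control and 16.8 to 24.9 in *Mafg*-null libraries, a log2 difference of 0.05 ± 0.11 (SE, exact permutation p = 0.643 over 84 groupings, two-sided, limma adjusted p = 0.882). The 2 calls thus lay in how values were divided between the models, and no difference was detectable in their total. *Rbm12* and *Nfs1*, which also overlap *Gm28036* on this strand, had log2 differences of 0.01 and -0.22 and were not called.

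**Figure D2:**
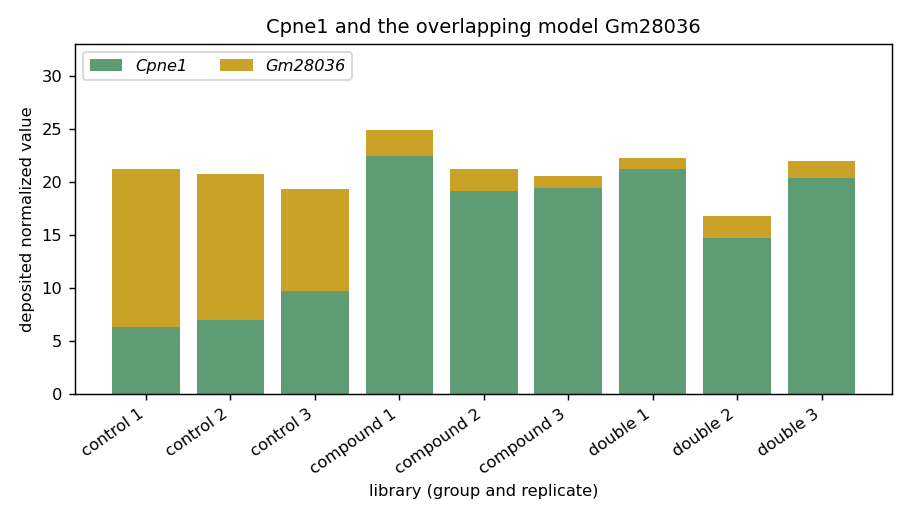
Deposited normalized values of *Cpne1* (lower part of each bar) and *Gm28036* (upper part) in the 9 libraries. The height of the whole bar is 19.3 to 21.2 in the control libraries and 16.8 to 24.9 in the *Mafg*-null libraries, while *Gm28036* makes up 9.6 to 14.9 in the former and 1.0 to 2.5 in the latter.

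*Gm5776* is a processed pseudogene on chromosome 7 (chr7:54061906-54062226) whose 321 bases are 99.7% identical to transcripts of *Mrps33*, which encodes a mitochondrial ribosomal protein. It had 2.3, 2.1 and 2.3 in control and 5.4, 12.9, 11.2, 11.9, 13.2 and 12 in *Mafg*-null libraries (1.86 ± 0.25, limma adjusted p = 0.0426). *Mrps33* itself had 25.5, 25.5 and 27.8 in control and 19.4 to 25.6 in *Mafg*-null libraries (-0.18 ± 0.09, limma adjusted p = 0.697). The sum of both was 27.6 to 30.1 in control and 24.8 to 38.5 in *Mafg*-null libraries and was not called (0.24 ± 0.13, limma adjusted p = 0.697), so the call on *Gm5776* is uncertain as to the gene its reads came from.

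The 16 genes were next compared between the knockouts, which differ in their remaining *Mafk* copy. The pooled test counts a difference between the knockouts as spread, and so favours genes in which it is small. Double KO minus compound KO differences lay between -0.17 and 0.59 log2 units in the called genes, each smaller in size than the *Mafg*-null difference of the same gene, and none passed (limma adjusted p of 0.510 or more, none at or under 0.05 before adjustment). The largest, 0.59 ± 0.30 for *Slc48a1* and 0.53 ± 0.32 for *Myod1*, had the widest errors. These p-values do not show that the knockouts are alike. Over all genes, 5 were called between double KO and compound KO (0.0343%), among them *Mafk* at -2.18 and none of the 16.

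**Figure D3:**
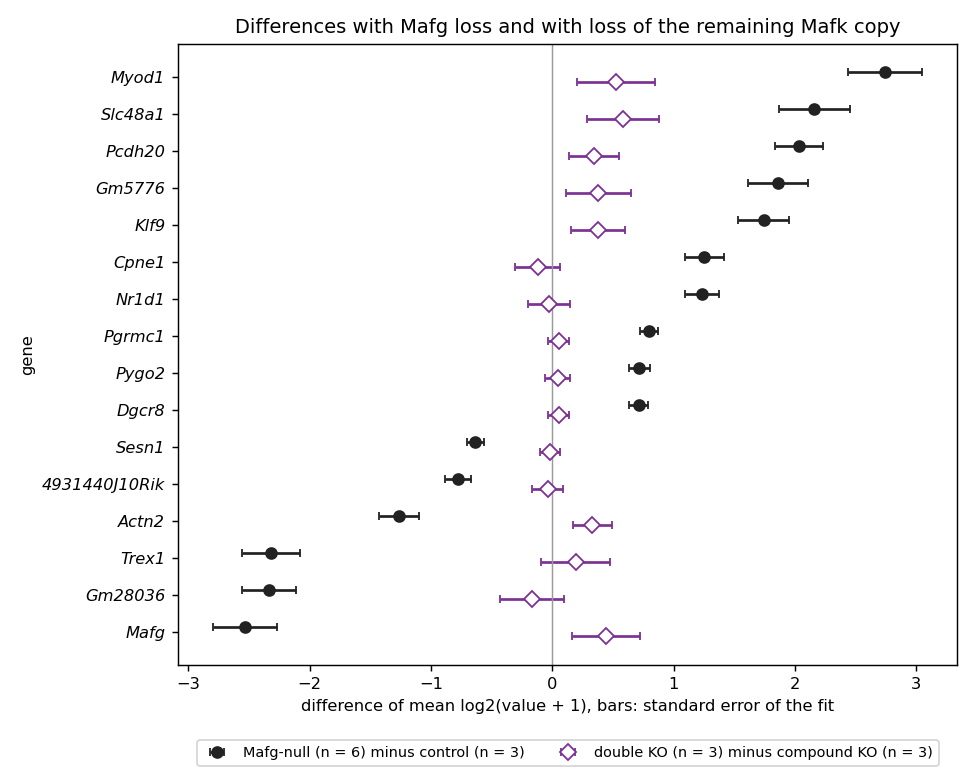
Log2 differences of the 16 called genes. Filled circles are *Mafg*-null minus control, open diamonds double KO minus compound KO, and bars are standard errors of the fits. The circles lie between -2.53 and 2.74 and the diamonds between -0.17 and 0.59.

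Since compound KO replicate 1 stood apart, the pooled test was repeated with the other 5 *Mafg*-null libraries. 71 genes were then called (0.495% of 14342 tested), 46 elevated and 25 reduced, with all 16 among them. In 47 of the 71, compound KO replicate 1 lay beyond the controls on the same side as the other *Mafg*-null libraries, in 12 it lay within the range of the controls and in 12 on the opposite side. This choice was made after the values were seen, and the genes named from it in what follows were picked for their function or the size of their change.

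Of the 10 heme and iron genes, 3 were called in that fit, *Slc48a1*, *Hmox1* and *Ftl1*, and 7 were not. *Hmox1*, heme oxygenase 1, the enzyme that opens the heme ring, had 1.8, 1.2 and 3.5 in control, 3.0 in compound KO replicate 1 and 14.1, 12.6, 24.9, 20.4 and 24.7 in the others. With 9 libraries it was not called (limma adjusted p = 0.339), and without compound KO replicate 1 it was (2.70 ± 0.31, adjusted p = 0.0117). *Ftl1*, the ferritin light chain, had 686.4, 678.4 and 608.4 in control, 749.3 in compound KO replicate 1 and 1422 to 1854 in the others. Its difference went from 1.12 ± 0.26 (limma adjusted p = 0.310) to 1.31 ± 0.09 (adjusted p = 0.00112). *Ftl2* and the pseudogenes *Gm15590* and *Gm12164*, 99.1% and 96.0% identical to *Ftl1*, were called with it and can share its reads, so they do not count as separate results.

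*Hfe*, the hemochromatosis protein that regulates iron uptake, had 49.3, 19.6 and 48.7 in control, 48.2 in compound KO replicate 1 and 138.1 to 156.8 in the others (2.01 ± 0.28 without that library, limma adjusted p = 0.0306). It is not on the heme and iron list, of which *Hmox2* and *Fth1* were not called in either fit. *Hmox2*, the constitutive heme oxygenase, was lower without overlap in *Mafg*-null libraries (34.7 to 44.8 in control, 24.3 to 32.1) but not called (-0.47 ± 0.11, limma adjusted p = 0.295). *Fth1*, the ferritin heavy chain, had 361.2, 383.8 and 388.8 in control, 256.1 in compound KO replicate 1 and 421.4 to 497.9 in the other *Mafg*-null libraries. Of the whole list of 10, *Slc48a1* alone was called in the pooled test, 8 had a higher and 2 a lower mean. The median difference was 0.21 against 0.018 for all genes. 1 of the 10 was below 1 in every control library and met the filter through *Mafg*-null libraries alone.

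Red cell markers had higher means too. The 10 tested erythroid genes all had a higher mean in *Mafg*-null lenses, with a median of 0.80. Without compound KO replicate 1 the median was 0.94, and 7 of the 10 were higher without overlap, against 3.88% of all genes. Of the 10, 2 were below 1 in every control library and met the filter through *Mafg*-null libraries alone, which favoured a higher mean. In neither fit was any of the erythroid genes called. They summed to 1201 to 1658 in control libraries, 1444 in compound KO replicate 1 and 2120 to 3991 in the other *Mafg*-null libraries. Their part in the values of *Slc48a1*, *Hmox1* and *Ftl1* was not tested.

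**Figure D4:**
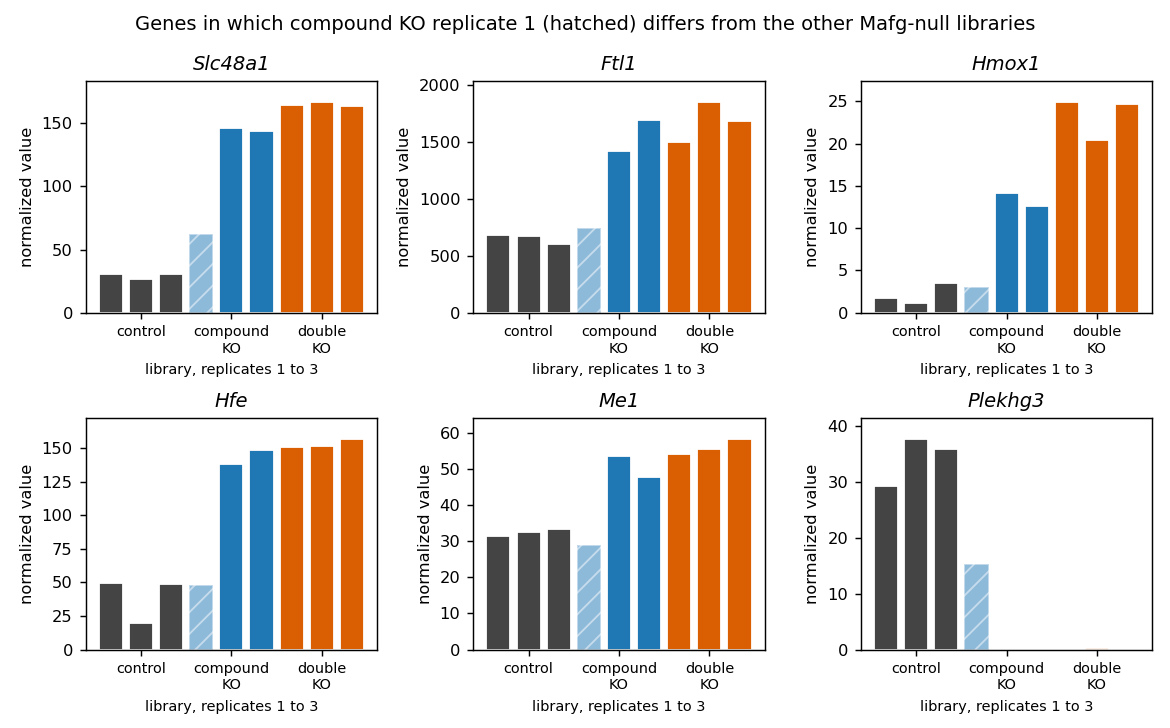
Normalized values of *Slc48a1*, *Ftl1*, *Hmox1*, *Hfe*, *Me1* and *Plekhg3* in each library, with replicates 1 to 3 of each group from left to right and compound KO replicate 1 hatched. The hatched bar lies within or near the range of the controls in *Ftl1*, *Hmox1*, *Hfe* and *Me1*, between the groups in *Slc48a1*, and at 15.3 in *Plekhg3*, where the other *Mafg*-null libraries are at 0.2 or less.

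No gene of the lists that Nrf2 activates was called in the pooled test. Of 16 glutathione genes, 7 had a higher and 9 a lower mean, with a median of -0.13. Without compound KO replicate 1 the median turned to 0.03, with a higher mean in 8 of the 15 then tested and none called. *Gclm*, the regulatory subunit of glutamate-cysteine ligase, gave 47.2, 49.0 and 50.3 in control, 48.6, 65.4 and 88.1 in compound KO and 98.2, 106.8 and 103.0 in double KO libraries, so that its values were higher in each double KO library than in any compound KO library (0.64 ± 0.18 between the knockouts, limma adjusted p = 0.510). *Gclc*, the catalytic subunit, differed by only 0.15, from 27.7 to 28.5 in control to 28.7 to 33.8, without overlap. *Gstm1*, a glutathione transferase, was lower without overlap (125.1, 134.6 and 150.8 against 51.5 to 105.1) and was not called (-0.59 ± 0.22, limma adjusted p = 0.609).

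Of 18 quinone, thioredoxin and NADPH genes, 12 had a higher and 6 a lower mean. Without overlap, 4 were higher and 1 was lower, against 2.68% and 4.27% of all genes. *Ephx1*, *Prdx6*, *Srxn1* and *Txnrd1*, which detoxify epoxides, peroxides and oxidized peroxiredoxin or reduce thioredoxin, were higher without overlap, by 0.50, 0.58, 0.62 and 0.46, with limma adjusted p between 0.173 and 0.445. *Txnrd1*, for instance, went from 49.2 to 53.1 in control to 61.7 to 97.7 in *Mafg*-null libraries. *Nqo1*, a common reporter of Nrf2 activity, had 2.5 to 2.7 in control and 2.2 to 3.1 in all *Mafg*-null libraries but compound KO replicate 1, at 7.7. *Me1*, malic enzyme, had 31.4 to 33.4 in control, 28.8 in compound KO replicate 1 and 47.8 to 58.3 in the others, and was called only without that library (0.71 ± 0.07, adjusted p = 0.00375).

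Proteasome subunits, which Nrf1 controls, mostly had slightly lower means in *Mafg*-null libraries. Of 33 genes on the list, which includes the partner ATPase *Vcp*, 30 had a lower and 3 a higher mean. 21 were lower without overlap, against 4.27% of all genes and 6.06% of those with a mean of at least 10, but none was called. *Psmb3* came closest, with 69.9, 78.6 and 74.3 in control and 49.4 to 59.0 in *Mafg*-null libraries (-0.45, limma adjusted p = 0.0819). The summed value of the list was 3843 to 4191 in control, 2756 in compound KO replicate 1 and 3337 to 3665 in the other *Mafg*-null libraries. The median difference was -0.27 against 0.018 for all genes. Under library size scaling it was -0.11, where the median of all genes moved to 0.16. There 6 of the 33 were lower and 2 higher without overlap, against 1.37% and 6.55% of all genes.

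None of the partners of the small Mafs was called. *Bach1* had 15.8 to 17.8 in control and 17.3 to 35.7 in *Mafg*-null libraries, and *Nfe2l1* overlapped. *Nfe2l2* was lower without overlap, at 29.0, 31.4 and 31.2 in control and 9.5 to 25.7 in *Mafg*-null libraries (-0.60 ± 0.27, limma adjusted p = 0.669). Of the large Mafs, *Mafa* went from 12.8, 14.7 and 12.8 to between 3.2 and 9.4, without overlap and not called (-0.91, limma adjusted p = 0.409). *Mafa* was called without compound KO replicate 1 (-0.74 ± 0.11, adjusted p = 0.0373). *Maf*, by far the highest of them, had 1036 to 1198 in control, 363.6 in compound KO replicate 1 and 875.7 to 1127 in the others.

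The libraries carried the markers of lens. *Cryba1* had 55970 to 61906 in the controls and 20196 to 61430 in *Mafg*-null libraries. No gene of the lens lists passed the pooled test. Among 17 fiber genes, 14 had a lower mean and 4 were lower without overlap, *Bfsp1*, *Dnase2b*, *Gja3* and *Pitx3*. Of all genes, 4.27% were lower without overlap, and of those with a mean of at least 10, 6.06%. The median over the fiber list was -0.35 (-0.16 without compound KO replicate 1). *Bfsp1*, which encodes the beaded filament protein filensin, had 4539, 5520 and 4519 in control, 1292, 2830 and 2829 in compound KO and 2604, 2682 and 3267 in double KO libraries. Its difference of -0.96 ± 0.27 was not called (limma adjusted p = 0.421), but that of -0.77 ± 0.10 without compound KO replicate 1 was (adjusted p = 0.0189). *Cryab*, the small heat shock protein αB-crystallin, was likewise lower in all *Mafg*-null libraries (2534, 2546 and 3191 in control, 791.4 to 1869 in *Mafg*-null, -0.98 ± 0.27, limma adjusted p = 0.401).

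The medians were -0.42 for 7 α and β crystallins and -0.53 for 8 γ crystallins, and in either family 1 gene had a higher mean. Without compound KO replicate 1 they were -0.18, with a higher mean in 2 of the 7, and -0.33. The γ crystallins ran from *Crygb* at -1.83, with 15185 to 19804 in control, 71.6 in compound KO replicate 1 and 6820 to 15789 in the others, to *Crygs* at 0.06. The 13 epithelial genes had a median of -0.15, against 0.018 for all genes. Under library size scaling these medians were 0.01 and 0.16, so the list stayed below all genes. *Cdh1* (E-cadherin) alone of the list was lower without overlap (-0.65). Proliferation genes had a higher mean in 22 of 24 and a median of 0.37, or 0.22 without compound KO replicate 1, and cholesterol synthesis genes in 20 of 22 with a median of 0.13. None of them was called.

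Of 15 genes of the integrated stress response, 10 had a higher mean and none was called. 1 of the 15 was below 1 in every control library and met the filter through *Mafg*-null libraries alone. *Atf5*, a bZIP factor of this response, had 52.7, 61.8 and 53.4 in control, 68.1 in compound KO replicate 1 and 100.3 to 118.1 in the other *Mafg*-null libraries (0.87, limma adjusted p = 0.212). It was called without compound KO replicate 1 (0.98 ± 0.08, adjusted p = 0.00200). *Slc7a5*, an amino acid transporter, was lower without overlap (-0.53).

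The other 10 candidates, which the study listed for the double KO, were not called when the *Mafg*-null libraries were pooled (limma adjusted p of 0.339 or more). In 9 of them the double KO and compound KO libraries differed at 0.05 before adjustment, against 8.25% of all genes. The list was drawn up with these libraries in hand, so this is given as a description. *Lars2*, the mitochondrial leucyl-tRNA synthetase, had 201.9, 304.4 and 286.5 in control, 266.9, 20.2 and 78.6 in compound KO and 20.4, 23.4 and 19.1 in double KO libraries. Compound KO replicate 1 thus lay among the controls, and without it *Lars2* was called (-3.21 ± 0.46, limma adjusted p = 0.0310). *Sipa1l1*, a Rap GTPase activator, had 22.8 to 60.4 in control, 31.0 to 55.2 in compound KO and 2.3 to 4.1 in double KO libraries, so its low values did not accompany the loss of *Mafg* alone.

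Most markers of tissues around the lens had higher means in *Mafg*-null libraries, and none of them was called in the pooled test. All 16 mesenchyme genes and all 14 retinal genes had a higher mean, with medians of 1.15 and 1.17, which fell to 0.71 and 0.62 without that library. The mesenchyme list summed to 152.6 to 195.6 in control, 3106 in compound KO replicate 1 and 117.4 to 458.5 in the others, and the retinal list to 45.6 to 119.9, 1398 and 68.6 to 350.8. The medians were 0.78 for pigment epithelium (0.02 without that library), 0.80 for surface epithelium (0.64), 0.23 for endothelium (0.20) and 0.25 for macrophages (0.27). Below 1 in every control library were 2 of the 5 surface epithelium genes and 1 each of the mesenchyme and macrophage genes. These met the filter through *Mafg*-null libraries alone, which favoured a higher mean. In double KO replicate 2 the sums of the mesenchyme, pigment epithelium and macrophage lists, 117.4, 38.0 and 13, were below those of every control. The macrophage median pools knockouts that differed. That list summed to 44.3, 33.7 and 33.3 in compound KO, 23.4, 13 and 15.5 in double KO and 16.4 to 21 in control libraries. The double KO sums thus lay on both sides of the control range. Of its 10 tested genes, 7 differed between the knockouts at 0.05 before adjustment, against 8.25% of all genes, and none was called. Among these lists 1 gene was called without compound KO replicate 1, *Rorb*, a retinal nuclear receptor (8.0 to 13.1 in control, 119.5 in that library and 24.8 to 45.0 in the others, 1.40 ± 0.22, limma adjusted p = 0.0433). It was also higher without overlap in all 9 libraries.

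**Figure D5:**
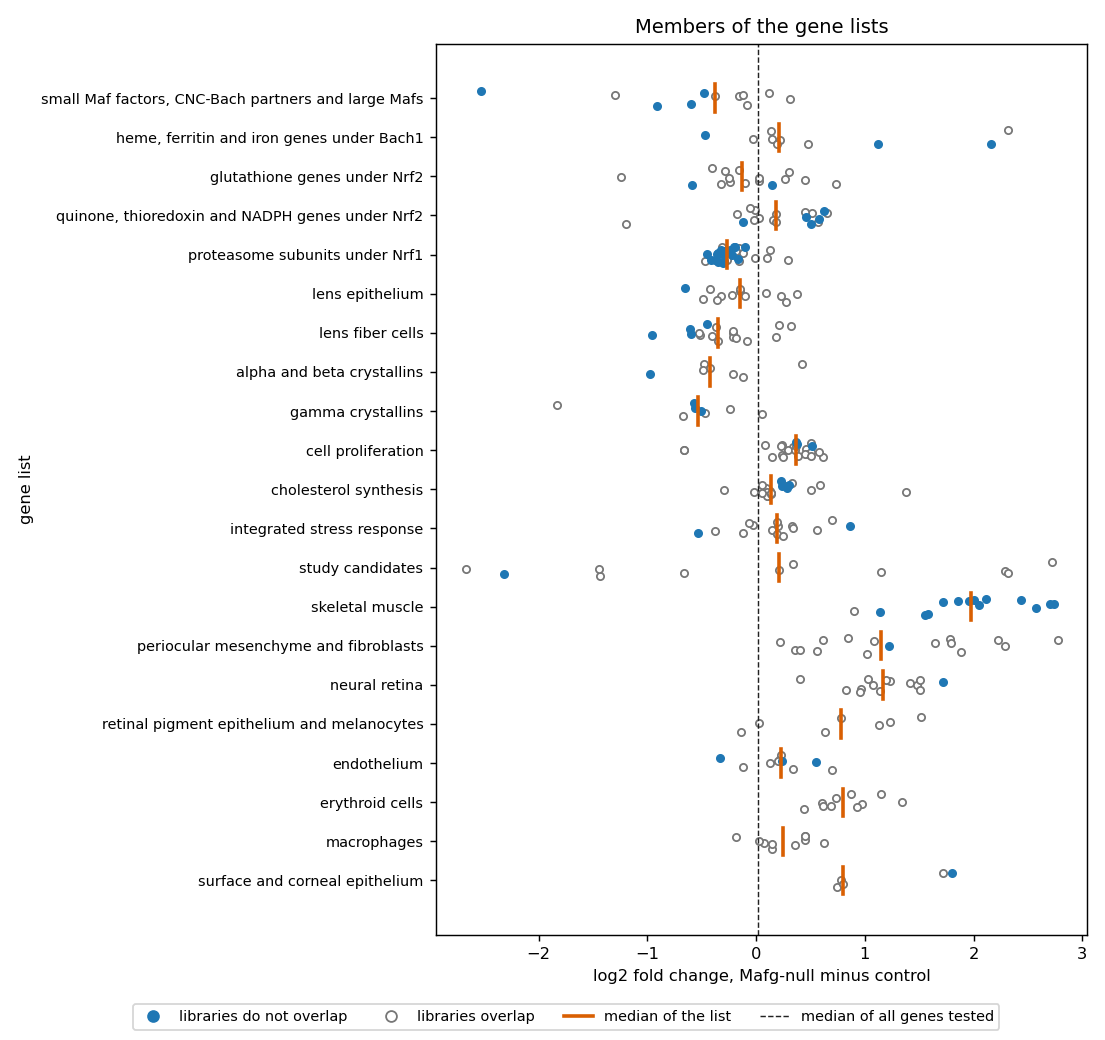
Log2 differences of *Mafg*-null minus control for each tested gene of 21 lists, 1 list per row. Filled points are genes whose *Mafg*-null and control libraries do not overlap, bars are list medians and the dashed line is the median of all genes, 0.018. The skeletal muscle list lies farthest to the right (median 1.98), and the proteasome list is the narrowest with a negative median (-0.27). The medians of the lens epithelium and glutathione lists (-0.15 and -0.13) become 0.01 and 0.06 under library size scaling. That scaling moves the median of all genes to 0.16, so both lists stay below it.

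In addition to the called genes, 216 others differed at least 1.5-fold without overlap between the groups. Those with the smallest p and a mean of at least 10 in 1 group are named here as not called. On the elevated side, *Mknk2*, a kinase of the translation factor eIF4E, had 11.5, 13.5 and 14.1 in control and 95.8, 30.3, 139.9, 111.5, 111.6 and 136.0 in *Mafg*-null libraries (2.77 ± 0.44, limma adjusted p = 0.0869). *Pola1*, the catalytic subunit of DNA polymerase α, went from 21.0 to 24.0 up to 32.6 to 43.8 (0.74, adjusted p = 0.0563) and *Ankrd44* from 4.8 to 7.4 up to 14.1 to 26.6 (1.34, adjusted p = 0.0750). *Trim27* and the splicing factor *Isy1* had differences of 0.79 and 0.60 (limma adjusted p = 0.120 for both).

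On the reduced side, *Plekhg3*, a guanine nucleotide exchange factor, had 29.2, 37.7 and 35.9 in control, 15.3 in compound KO replicate 1, 0.2 in double KO replicate 2 and was listed at 0 in the other 4 *Mafg*-null libraries (limma adjusted p = 0.212). *Dnmt3a*, the de novo DNA methyltransferase, had 65.2, 80.7 and 64.9 in control and 35.8 to 46.6 in *Mafg*-null libraries (-0.72 ± 0.10, adjusted p = 0.0570). *Rgs8*, a regulator of G protein signalling, had 61.9, 83.4 and 65.5 in control and 27.4 to 41.9 in *Mafg*-null libraries (-0.98 ± 0.14, adjusted p = 0.0563). *Cnrip1*, *Magi2*, *Sdccag3* and *Uhrf1bp1* had differences of -0.93, -0.90, -1.34 and -1.03 with limma adjusted p between 0.0919 and 0.217. *Dnmt3a*, *Rgs8*, *Cnrip1*, *Plekhg3*, *Pola1*, *Ankrd44* and *Isy1* were called without compound KO replicate 1.

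The calls depended on single libraries, both control and *Mafg*-null. Fewer genes were called without compound KO replicate 3 than without control replicate 1, and the fewest without control replicates 2 and 3. Without control replicate 3 no gene was called in limma's pooled test (369 genes passed 1.5-fold and 0.05 without adjustment), without control replicate 2 none of the 16 was among the 2 called, and 5 of the 16 remained without control replicate 1. The direction of each of the 16 was the same in every fit without 1 library in which the gene was tested. Of these 9 fits, *Slc48a1*, *Pygo2* and *Gm5776* were called in 1 each, and *Gm28036*, *Pcdh20*, *Pgrmc1* and *Trex1* in 7 each. Scaling by library size gave 25 calls, 21 elevated and 4 reduced, against 10 and 6 here, and 13 genes were shared.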

How the data were processed

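Libraries of 8 pooled lenses were grouped by the labelled genotypes, and *Mafg*-null means compound KO and double KO together. The values are a normalized signal deposited by the authors: CPM from strand-specific paired-end reads aligned to mm39 with HISAT2, assembled with StringTie and processed in edgeR, rounded to 1 decimal, with totals between 728036 and 1131180 per library. These totals are not depths. The depth is unknown, so precision was read from the spread between libraries, and no counting interval is given. Nothing ties replicate numbers to litters, and p-values measure the spread between these libraries.

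The main test, planned for normalized values, was limma (version 3.58.1, R 4.3.3), two-sided and with an intensity trend, on log2(value + 1), adjusted after Benjamini-Hochberg over the 14578 entries that carry a symbol and reach 1 in 2 or more libraries. A call needed an adjusted p no higher than 0.05 and a 1.5-fold change. Double KO and compound KO were compared in a fit of 3 group means. A single summed value was tested by exact permutation over 84 groupings. On simulated data for the pooled comparison (14578 genes, 200 changed) the fit called 61 of 104 genes changed by 1 log2 unit (58.7%), 82 of 96 changed by 2 (85.4%) and 6 unchanged genes. The simulated spread was that within the 3 groups and was independent for each gene. It held no difference between the knockouts and no library that departs across many genes, so these rates can overstate recovery in the real values.

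The members, gene lists and tests were chosen with earlier results of these data known, and the clock list after seeing the values. The genes named were Mafg, Mafk, Maff, the study's 11 candidates, up to 12 called genes in each direction that do not overlap and have a mean of at least 10 in 1 group, filled from the smallest p among those not called, and the called or extreme members of each list. Genes outside this rule were chosen after their values were seen. Gene positions are from GENCODE release 39 (GRCm39), which held 91.8% of the tested symbols, and promoters from RefSeq. Transcripts were compared with blastn 2.17.0, and tables and figures used Python 3.11.15. Alternatives changed the pseudocount, filter, scaling, model, overlapping models or 1 library. Values of some list genes are not reported here.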

Additional observations from a re-analysis of the deposited data

Results flagged for a closer look

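Of 75 named genes, 24 had 1 of the 6 *Mafg*-null libraries far from the other 5. Far means a gap to the nearest library above 0.625 of the group's range, which chance alone gives in about 1 in 20 single groups. Here the 6 libraries held 2 genotypes, and part of the list genes were named for an extreme difference, which 1 such library can produce. The 24 are therefore a description and cannot be weighed against that rate. In 22 of them this library was compound KO replicate 1. It was the highest in markers of other tissues and in proliferation and other genes, with gaps of 0.982 in Krt15, 0.967 in Dct, 0.954 in Col1a1, 0.939 in Krt18, 0.920 in Col3a1, 0.890 in Kdr, 0.866 in Epha5, 0.848 in Ankrd44, 0.827 in Elavl4, 0.816 in Ccnd1 and 0.787 in Rorb. It was also highest in Plekhg3 (0.987) and Lars2 (0.760). It was the lowest in Akr1b8 (0.842), Slc7a5 (0.809), Slc48a1 (0.783), Gm5776 (0.744), Cdh1 (0.696), Trex1 (0.692), Mafg (0.677), Bfsp1 (0.664) and Atf5 (0.644). The remaining 2 were Pgrmc1, highest in double KO replicate 2 (0.793, a value of 144.4), and Psmd14, lowest in compound KO replicate 2 (0.692, a value of 7.3).

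The double KO and compound KO libraries differed past limma's threshold in 5 genes. Mafk was lower in double KO by a log2 difference of -2.18 and Sipa1l1 by -3.47. Gm12866, a non-coding RNA, was higher by 2.68 (3.1 to 6.6 in control, 0.0 to 0.1 in compound KO and 5.5 to 6.2 in double KO libraries), an entry that shows the date 8-Sep in place of a symbol by 1.04 (206.0 to 229.1, 94.1 to 114.3 and 209.6 to 214.7), and Sohlh1 by 1.87 (listed at 0 in control, 0.0 to 0.3 and 2.2 to 4.2). In Gm12866 and 8-Sep the double KO libraries were thus close to the controls and the compound KO libraries were low.

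Entries without a symbol were not part of the comparisons. In a fit of all entries, 18 of 5311 tested without a symbol were called between *Mafg*-null and control libraries (0.339%), 7 higher and 11 lower.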

How the results depend on the processing

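Depth is unknown, so low values such as those of Myod1, Nr1d1, Pcdh20 and 4931440J10Rik carry an error that the table does not show, and with 3 control libraries the calls lie near the threshold. Against 16 genes called with *Mafg* loss, all without overlap, scaling by library size gave 25 called and 25 without overlap (21 elevated and 4 reduced, against 10 and 6), and it moved the median difference of all genes from 0.018 to 0.16. Weights per library (0.12 for compound KO replicate 1) gave 95 called, 71 of them without overlap. The other scalings, filters, pseudocount and models gave 13 to 21. When 1 library at a time was left out, the count ran from 0 to 71, both with and without the condition on overlap. It was 10, 2 and 0 without control replicates 1, 2 and 3, 71, 11 and 7 without compound KO replicates 1, 2 and 3, and 11, 13 and 15 without double KO replicates 1, 2 and 3. The cause was not tested.

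Between double KO and compound KO, 5 genes were called, 2 with a pseudocount of 0.1, 1 with a value of at least 1 in all 9 libraries, 2 after scaling by library size, 2 in a fit of the 6 knockout libraries alone, and 0 to 13 with 1 library left out (0 without double KO replicate 2 and 13 without compound KO replicate 3). The difference of Epha5 turned from 0.34 to -0.11 with library weights and ran from -0.18, without compound KO replicate 1, to 0.60 with 1 library left out. Gm28036 turned from -2.34 to 0.049 when summed with Cpne1, an alternative chosen after seeing the data, which also ended the call on Cpne1.

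With a replicate block, 0 genes were called with *Mafg* loss, 0 without overlap and 0 between the knockouts (403 and 919 at 1.5-fold and 0.05 before adjustment). The numbers share no stated origin: correlations of same-numbered libraries, after removal of group means, ran from -0.11 to 0.22, with 2 of 9 over 0.1, so the libraries were not treated as paired.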

Other observations

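Since *Nr1d1* and *Klf9*, which both respond to the circadian clock, were called, 19 clock genes were read out, a list chosen after the values were seen. Both genes are on this list and count among the 10 with a higher mean in *Mafg*-null lenses, while 9 had a lower one. The median log2 difference of the list was 0.04. *Nr1d2*, the paralogue of *Nr1d1*, had 8.9, 6.8 and 8.7 in control and 12.9 to 21.2 in *Mafg*-null libraries (0.85 ± 0.16, limma adjusted p = 0.178), and *Nfil3*, a repressor of the same output genes, had 5.3 to 6.4 and 8.1 to 14.4. *Per2* and *Cry2*, repressors of the core loop, were lower without overlap, at 20.2 to 25.0 against 2.4 to 15.9 and at 44.8 to 48.3 against 23.1 to 39.5 (limma adjusted p = 0.501 and 0.452). *Per1*, *Per3*, *Dbp*, *Tef*, *Clock* and *Arntl* overlapped between the groups. The hour at which the lenses were collected is not given in the sources used here.

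Among the genes called only without compound KO replicate 1, several had large differences and no list. *Ptafr*, the receptor of platelet-activating factor, had 0.4, 0.3 and 0.4 in control, 2.0 in compound KO replicate 1 and 6.4 to 8.1 in the other *Mafg*-null libraries (2.60 ± 0.10, limma adjusted p = 3.9e-05). *Ccdc178* had 4.7 to 5.5 in control, 5.9 in that library and 14.2 to 17.0 in the others (1.44 ± 0.08, limma adjusted p = 0.000386). *Susd2*, a membrane protein, had 28.6 to 31.1, 23.1 and 57.7 to 91.7 (1.28 ± 0.13, limma adjusted p = 0.00734). Of the reduced genes, *Uox*, urate oxidase, had 8.3 to 9.3 in control and 2.2 to 5.1 in all *Mafg*-null libraries (-1.17 ± 0.19 without compound KO replicate 1, limma adjusted p = 0.0450), and *Zbtb7b*, a zinc finger factor, 218.5 to 341.0 in control and 69.4 to 155.7 in all of them (-0.92 ± 0.14, limma adjusted p = 0.0373).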
